A study of Homo sapiens with 42 samples.

Results

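LM2 cells given only the DMSO vehicle were compared at 72 h and at 24 h, with 3 libraries at each time. These are 6 of the 42 libraries of the series, chosen by their labels for treatment and time, and 6 of the 18 libraries in the time-course table. LM2 is a line derived from MDA-MB-231, an established human breast cancer cell line, and its labels call it highly metastatic to lungs. The vehicle cells received DMSO in the volume that carries 3 µM of a compound named T4, which was present for 6 h, and the later harvests followed a change of medium. No group in the comparison carries a knockdown or a compound, so time after the start of the experiment is what separates them. Cells were grown in high-glucose medium with serum, and the general protocol of the series gives harvest at about 70% confluence. The cell density at 24 h and at 72 h is not given in the sources used here, so time, density and age of the medium cannot be told apart. Vehicle libraries at 6 h and T4-treated libraries at 24 and 72 h, 3 of each, are given for comparison.

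Adherent cells in culture change their surroundings as they grow. Contact and soft surroundings hold the coactivators YAP and TAZ (encoded by YAP1 and WWTR1) in the cytoplasm, where they cannot act with the TEAD factors on genes such as CTGF and ANKRD1. Crowded cells use up oxygen, amino acids and lipids, which are sensed through HIF-1, through the stress kinases of translation and mTORC1, and through SREBP, and growth signals set how many ribosomes a cell makes. These pathways are the background for the gene groups below and were not measured here.

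Total RNA was sequenced from 3′ ends (QuantSeq REV, in which a read marks the poly(A) site of a transcript). The vehicle libraries held 1.39 to 1.64 M counts at 24 h and 1.39 to 1.52 M at 72 h (M, mega), so genes of a few CPM rest on few reads a library. Whether the 3 libraries of a time came from separate cultures is not stated in the labels. Every p-value below is therefore a measure of the spread among the deposited libraries, part or all of which could be technical. Markers of a mesenchymal-like, triple-negative breast cancer line mostly, but not all, had the levels of that type. VIM, vimentin, was at 225 to 575 CPM and AXL, a receptor tyrosine kinase, at 456 to 709 CPM over the 6 libraries. FN1 was at 229 to 378 CPM and CD44 at 76.9 to 126 CPM. SPARC, a further marker that such cells would have high, was at 0.761 to 4.47 CPM. Of markers that they would have low, EPCAM was at 2.47 to 8.5 CPM and CDH1 had 1 read at 24 h and 0 at 72 h. ESR1, PGR and ERBB2, the receptors that define other breast cancers, had 1, 0 and 5 reads in the 6 libraries together. PTPRC, CD3E, CD79A, LYZ, COL1A2, COL3A1, DCN, LUM, VWF and CDH5, markers of blood, fibroblasts and endothelium, were at 0 reads. CD14, a marker of monocytes, had 0 reads at 24 h and 10 at 72 h (up to 3.93 CPM in a library), and the endothelial marker PECAM1 had 0 and 1. The immune marker CD68, at 13.6 to 28 CPM, and the fibroblast marker COL1A1, at 14 to 24.4 CPM, were present in all 6 libraries. A T4 library at 6 h, replicate 3, stood apart (0.925 M counts, 8793 genes detected against 11517 to 13331 in the other 17 libraries) and entered the shared estimate of the spread. Counts of calls are therefore also given without it. Among the vehicle libraries at 72 h, replicate 2 stood apart from the others. Its TMM scaling factor was 1.25, against 0.976 and 1.03. The chi-square per gene between replicates was 24.43 and 10.41 for the pairs with it and 6.46 for the pair without it. Its share of reads at TUBD1 (0.887% against 2.26 and 1.69%) lay within the 24 h range of 0.871 to 1.41%. That share moved together with the levels of SEMA3E and PDLIM5, and whether reads are divided among these genes was not tested. Calls are given without that library too.

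Of 8035 genes tested by edgeR, 149 (1.85%) rose from 24 to 72 h and 66 (0.821%) fell, at an adjusted p under 0.05. Among the risers, 133 at least doubled and 34 rose at least 4-fold, with a median log2 change of 1.54. The fallers had a median of −1.06, 43 of them fell by a log2 of at least 1, and 4 by at least 2. The median of all tested genes was +0.06. In all 149 and all 66 called genes the libraries of the 2 times did not overlap, against 976 higher (12.1%) and 1077 lower (13.4%) among all genes tested. The calls were made on these same libraries, so their lack of overlap is a description and not separate support. Without T4 6 h replicate 3 the counts were 225 (2.68%) and 322 (3.83%) of 8405 genes, with all 149 and all 66 called again, and the share of risers among the calls was 41.1% in place of 69.3%. The larger number of risers than of fallers therefore depends on which libraries share the fit. Without vehicle 72 h replicate 2 the counts were 74 and 24. The total of calls fell to 98 to 126 without each of the 6 libraries in turn, so a loss of calls is not particular to that replicate. Of the 76 genes named by rule that passed, 36 passed again under every alternative that tested them, among them ALDOC, ADAM8, S100A4, PTGES, SCD, S100A3, SEMA3B, SLCO4A1, GPR153, SMIM14, NDRG1, SLCO4A1-AS1, IQSEC2, DDIT4, ITGB4, TIMP3, INSIG1, LTBP3, CSF3, MXD4, PMEPA1, DUSP6, GDF15, TRIB2, COL6A1 and COL13A1, which rose, and CDC25A, MMP1, WDR77, AEN, RRS1, ADM, CTGF, ANKRD1 and F3, which fell. The other named calls kept their direction and missed the threshold under at least 1 alternative, such as the loss of 1 of the 6 libraries.

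**Figure D1:**
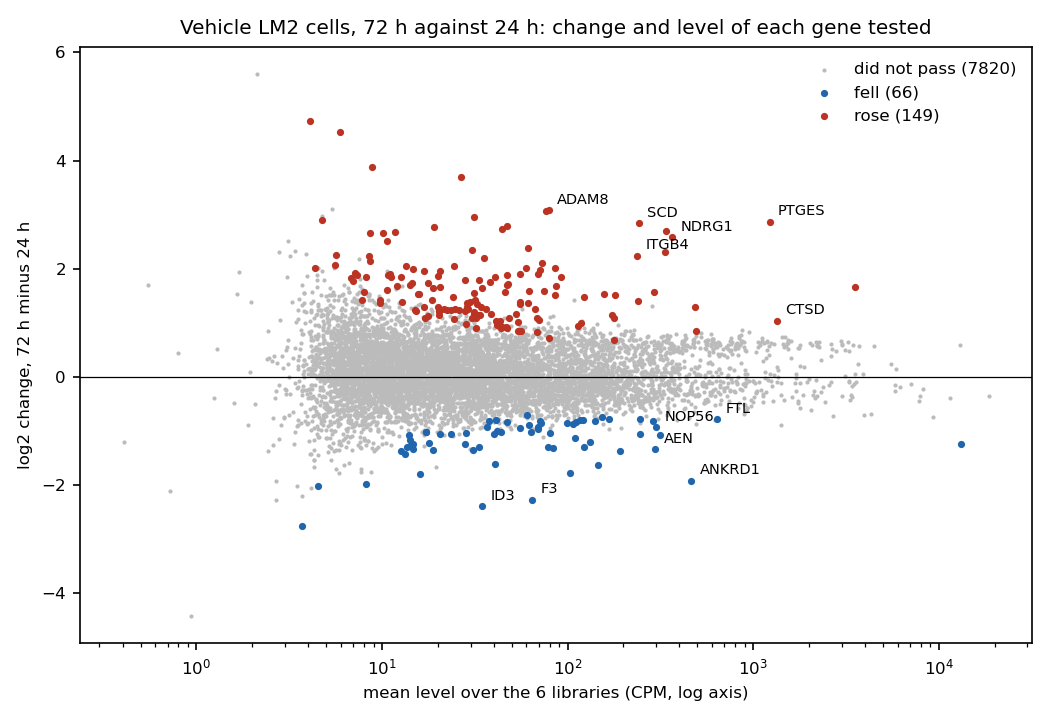
Change against level for the 8035 genes tested. Each point is a gene, the x axis is its mean CPM over the 6 vehicle libraries (log axis) and the y axis its log2 change from 24 to 72 h. Red points rose (149), blue points fell (66) and grey points did not pass. PTGES and CTSD stand out as risers at a high level, and ANKRD1 as a faller.

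ADAM8 (chromosome 10, 133262403–133276868), a membrane-anchored metalloprotease, was at 14.6, 19.1 and 16.2 CPM at 24 h and at 125, 154 and 145 CPM at 72 h. Its 6 h levels of 19, 14.4 and 11.7 CPM lay around those of 24 h, and the rise from 24 to 72 h was +3.08 ± 0.24 on the log2 scale (± standard error, adjusted p = 4.9e-07). S100A4 (chromosome 1, 153543613–153550136), a calcium-binding protein associated with cell motility, was at 20.3, 16.6 and 11.8 CPM at 24 h and at 133, 139 and 139 CPM at 72 h. It rose by +3.07 ± 0.31 (adjusted p = 1.3e-05). The span of S100A3, a related gene, lies within that of S100A4 (153547329–153549372), so that reads may not be fully separable, and S100A3 was at 6.99, 3.08 and 4.37 and then at 38.4, 29.5 and 32.5 CPM (+2.77 ± 0.37, adjusted p = 2.1e-04). A further family member nearby, S100A6 (153534599–153536244), rose by +1.67 ± 0.42 (adjusted p = 0.035). It went from 1924, 1435 and 1759 CPM to 5459, 5772 and 5000 CPM and was picked for this family after its values were seen.

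PTGES (chromosome 9, 129738331–129753047), the inducible prostaglandin E synthase, was at 273, 250 and 368 CPM at 24 h and at 2120, 2232 and 2135 CPM at 72 h. The 72 h libraries all stood far above the others (+2.87 ± 0.36, adjusted p = 1.3e-04), and the 6 h libraries, at 186, 188 and 150 CPM, lay below both. PTGS2, the cyclooxygenase that supplies its substrate, was at 1.23 to 6.24 CPM and did not pass (+0.36 ± 0.57, adjusted p = 0.79). SLCO4A1 (chromosome 20, 62642445–62685785), an organic anion transporter, went from 77.5, 112 and 85.4 CPM to 542, 622 and 606 CPM (+2.69 ± 0.20, adjusted p = 4.9e-07). SLCO4A1-AS1, an antisense RNA whose span (62663019–62666724) lies within that gene, went from 12.1, 24.7 and 21.8 CPM to 87.6, 102 and 119 CPM (+2.39 ± 0.26, adjusted p = 2.6e-05). Both rose. The strand setting of the authors' counting is not given in the sources used here, so reads of the 2 may not be fully separated. The other risers with the largest changes were MARCKSL1, an actin-binding protein (+2.96 ± 0.44), RASD1, a Ras-related GTPase (+2.79 ± 0.47), SEMA3B, a secreted semaphorin (+2.74 ± 0.36), the orphan receptor GPR153 (+2.68 ± 0.47), SMIM14 (+2.66 ± 0.49), METTL7A (+2.52 ± 0.50) and IQSEC2, an exchange factor for ARF GTPases (+2.34 ± 0.26). Their adjusted p were 2.7e-05 to 0.0083. GPR153, SMIM14 and METTL7A had 15, 13 and 15 reads at 24 h and 96, 80 and 84 at 72 h. Their mean at 24 h was 3.12, 2.7 and 3.12 CPM, so they met the 10 CPM limit for naming through the 72 h libraries. The sizes of these rises are uncertain, at 1.64 to 3.38, 1.56 to 3.41 and 1.55 to 3.21 over the alternatives. METTL7A passed in 15 of 18 of them. ITGB4 (chromosome 17, 75721328–75757818), the integrin β4 chain that binds laminin, went from 80.7, 82 and 86.1 CPM to 370, 423 and 380 CPM (+2.24 ± 0.22, adjusted p = 1.1e-05).

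**Figure D2:**
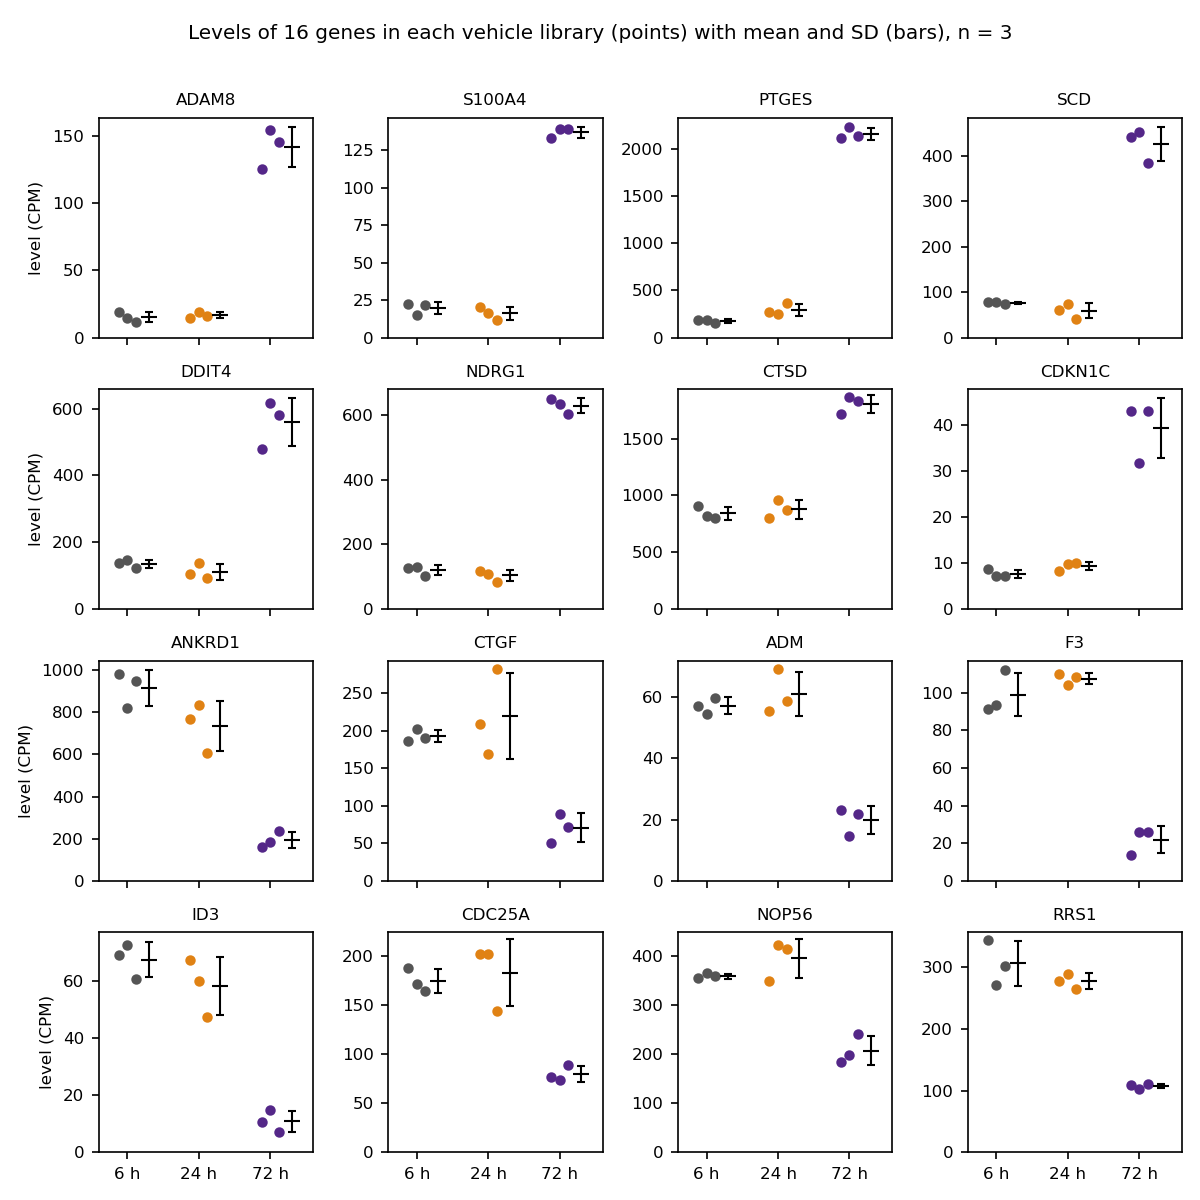
Levels of 16 genes in the vehicle libraries at 6, 24 and 72 h. Points are libraries (3 at each time), bars the mean and SD, and the y axis is the level in CPM from 0. ADAM8, S100A4, PTGES, SCD, DDIT4, NDRG1, CTSD and CDKN1C are higher at 72 h, and ANKRD1, CTGF, ADM, F3, ID3, CDC25A, NOP56 and RRS1 lower, with no overlap of the 24 and 72 h libraries in any of the 16.

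Targets of YAP and TEAD were among the genes that fell most. The promoters of CTGF (also called CCN2) and ANKRD1 are shown because both genes are standard readouts of this pathway and both fell. The sequence is from RefSeq (GRCh38.p14) and leaves out the bases before the RefSeq start that GENCODE places in a UTR, which are 1 base for CTGF and 189 bases for ANKRD1. Capitals mark GGAATG, the letters of the TEAD motif, searched on both strands.
CTGF, chr6:131951374-131951622, minus strand: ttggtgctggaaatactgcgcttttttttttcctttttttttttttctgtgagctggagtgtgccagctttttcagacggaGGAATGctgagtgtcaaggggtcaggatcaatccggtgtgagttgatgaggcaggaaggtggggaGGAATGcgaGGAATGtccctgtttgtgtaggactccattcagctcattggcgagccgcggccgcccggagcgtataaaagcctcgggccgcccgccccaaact
ANKRD1, chr10:90921277-90921337, minus strand: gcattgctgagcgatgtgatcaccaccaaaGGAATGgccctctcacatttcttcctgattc
The CTGF window holds the motif 3 times, beginning 169, 104 and 95 bases before the RefSeq start, and the ANKRD1 stretch holds it once, beginning 220 bases before that start. Of 27 genes of the YAP list with a promoter in the table, 15 (55.6%) had GGAATG within 250 bases before the start, against 14.3% of all 27305 genes. Of the 4 called members with a promoter there, 2 held it, and these are the 2 shown. The match is a description of these letters and not of binding.

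ANKRD1, a cardiac ankyrin repeat protein and YAP target, was at 769, 833 and 605 CPM at 24 h and at 161, 183 and 237 CPM at 72 h. The fall was −1.92 ± 0.30 (adjusted p = 0.001), from 6 h levels of 981, 819 and 950 CPM. CTGF, a matricellular growth factor (chromosome 6, 131948176–131951373), went from 209, 169 and 282 CPM to 50.7, 89.6 and 71.6 CPM (−1.63 ± 0.31, adjusted p = 0.0051). F3, tissue factor, which starts coagulation (chromosome 1, 94529225–94541800), went from 110, 104 and 108 CPM to 13.8, 26.1 and 25.8 CPM (−2.27 ± 0.24, adjusted p = 1.6e-05). WWTR1, the gene of TAZ itself (chromosome 3, 149517235–149736714), rose instead, from 9.53, 18.5 and 14.3 CPM to 24.6, 43.1 and 31.1 CPM (+1.23 ± 0.29, adjusted p = 0.027). Of 27 YAP targets and matricellular genes tested, 4 fell, 1 rose and 22 did not pass, with 22 of 27 changes below 0 and a median of −0.54. In 13 of them the libraries were lower at 72 h without overlap, and in 2 higher, against 13.4% and 12.1% of all genes tested. Of all 8035 genes tested 1.85% rose, 0.821% fell and 1209 had an unadjusted p under 0.05. These shares are the measure for the edgeR counts of each list from all 18 libraries, here and below. List counts from other fits have other shares. Without T4 6 h replicate 3, 2.68% of 8405 genes rose and 3.83% fell. Without vehicle 72 h replicate 2, 74 rose and 24 fell of 8308. With the 9 DMSO libraries alone, 233 rose and 323 fell of 7591. The list fell in 7 and rose in 1 of 28 without T4 6 h replicate 3. CYR61, the relative of CTGF, was at 17.8, 21 and 23.7 and then at 17.7, 6.24 and 11.3 CPM and did not pass (−0.86 ± 0.31, adjusted p = 0.16).

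Other genes of matrix and adhesion moved both ways. ID3, an inhibitor of basic helix-loop-helix factors and target of BMP and TGF-β signals (chromosome 1, 23557918–23559794), went from 67.3, 59.8 and 47.4 CPM to 10.8, 14.7 and 7.29 CPM. Its fall of −2.39 ± 0.48 (adjusted p = 0.0081) was the largest among the genes named by the rule. Of 13 TGF-β targets, 3 fell (ID3 and CTGF among them), 2 rose and 8 did not pass, where 0.821% of all genes fell and 1.85% rose. The risers were PMEPA1, a feedback inhibitor of the pathway (43.2, 43.2 and 34.3 CPM, then 138, 128 and 167 CPM, +1.84 ± 0.18, adjusted p = 1.2e-05), and LTBP3, which binds latent TGF-β (+1.99 ± 0.39, adjusted p = 0.0073). The members of this list thus went in opposite directions. Their median was +0.24, and it was −0.29 without vehicle 72 h replicate 2 and −0.00 without T4 6 h replicate 3, so its sign depends on 1 library. Of 22 genes of extracellular matrix and its proteases, 4 rose, 2 fell and 16 did not pass, and 6 rose and 2 fell of 23 without T4 6 h replicate 3. COL6A1, a collagen VI chain (chromosome 21, 45981737–46005050), went from 45.1, 41.3 and 48 CPM to 119, 134 and 129 CPM (+1.51 ± 0.18, adjusted p = 7.0e-05). COL13A1, a transmembrane collagen, went from 113, 113 and 114 CPM to 208, 269 and 245 CPM (+1.09 ± 0.17, adjusted p = 0.001). TIMP3, an inhibitor of metalloproteinases (chromosome 22, 32801701–32863043), went from 34.9, 25.9 and 21.8 CPM to 119, 136 and 101 CPM (+2.11 ± 0.29, adjusted p = 3.0e-04), and LAMA5, a laminin chain, rose by +1.73 ± 0.41 (adjusted p = 0.027). MMP1, interstitial collagenase (chromosome 11, 102789920–102798160), fell from 44.5, 33.9 and 40.5 CPM to 16.9, 16.4 and 16.6 CPM (−1.25 ± 0.25, adjusted p = 0.0086). MMP1 and COL6A1 are also the called members of 9 lung metastasis signature genes. Those signature genes were first picked on relatives of this very line, so the list is not independent of it. Among 12 epithelial genes JUP, plakoglobin of cell junctions, rose (+1.55 ± 0.32, adjusted p = 0.0093) and 11 did not pass. Of 8 mesenchymal genes S100A4 rose and 7 did not pass.

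Ribosome biogenesis genes were mostly lower at 72 h. Of 45 tested, 4 fell, 0 rose and 41 did not pass by edgeR, with 23 at an unadjusted p under 0.05 and 14 fallers by DESeq2. Over all 8035 genes, 0.821% fell by edgeR, 1209 had such an unadjusted p and 189 fell by DESeq2. The changes were below 0 in 41 of 45 with a median of −0.66, and in 26 of 45 the 72 h libraries were lower without overlap, against 13.4% of all genes. NOP56, a core protein of box C/D ribonucleoproteins (chromosome 20, 2652145–2658393), went from 348, 422 and 413 CPM to 183, 198 and 240 CPM (−0.93 ± 0.22, adjusted p = 0.027). POLR1B, the second largest subunit of RNA polymerase I, went from 19.1, 19.7 and 16.2 CPM to 8.45, 6.24 and 6.63 CPM (−1.37 ± 0.34, adjusted p = 0.032). TSR1 and IMP4, both needed to make the small subunit, fell by −1.30 ± 0.31 and −0.90 ± 0.20 (adjusted p = 0.028 and 0.021). The 4 calls are sensitive to the libraries used: the count was 18 fallers without T4 6 h replicate 3 and 0 without vehicle 72 h replicate 2. The list's median did not shrink, at −0.72 and −0.78. Over all genes the fallers went from 66 to 24 without vehicle 72 h replicate 2. RRS1, POLR1E and CCDC86 were named by the rule of the largest falls and are not members of the list. RRS1, a ribosome assembly factor, went from 278, 289 and 264 CPM to 109, 103 and 110 CPM (−1.37 ± 0.20, adjusted p = 4.2e-04). POLR1E, another RNA polymerase I subunit (−1.36 ± 0.33, adjusted p = 0.031), and the nucleolar protein CCDC86 (−1.36 ± 0.29, adjusted p = 0.014) fell too. The 55 genes of cytosolic ribosomal proteins themselves gave 0 calls by edgeR and limma, 1 by DESeq2 and 3 at an unadjusted p under 0.05, with a median of −0.08, and 1 fell without T4 6 h replicate 3. The lowest p among them belonged to RPS26, at 572, 634 and 702 and then at 412, 434 and 521 CPM (−0.48 ± 0.18, adjusted p = 0.20).

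Genes of amino acid supply and of the stress response of translation were divided. SLC7A5, the large neutral amino acid transporter LAT1 (chromosome 16, 87830023–87869488), went from 283, 329 and 386 CPM to 163, 165 and 150 CPM (−1.06 ± 0.20, adjusted p = 0.0051). PPP1R15A, also called GADD34, which restores translation after stress, went from 140, 151 and 159 CPM to 56.9, 81.6 and 66.9 CPM (−1.13 ± 0.26, adjusted p = 0.023). SLC38A2, an amino acid transporter, rose by +0.71 ± 0.19 (adjusted p = 0.045), a call that was kept under 5 of the 18 alternatives that tested it. Of 30 genes of the integrated stress and amino acid response, 2 rose (SLC38A2 and DDIT4), 2 fell and 26 did not pass, where 1.85% of all genes rose and 0.821% fell. The median was −0.29 with 24 of 30 changes below 0, and 6 fell without T4 6 h replicate 3. Of 17 heat shock genes 0 passed by edgeR or limma, 4 had an unadjusted p under 0.05 and 2 fell by DESeq2 (median −0.40), and 4 fell by edgeR without that library. HSPA8, the constitutive HSP70, was at 1982, 1892 and 2186 and then at 1322, 1508 and 1524 CPM and did not pass (−0.48 ± 0.19, adjusted p = 0.22). None of 16 ER folding genes passed (0 by edgeR, DESeq2 and limma, 1 at an unadjusted p under 0.05, median +0.21). HSPA5, the ER chaperone BiP, had +0.75 ± 0.29 (adjusted p = 0.21).

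Among hypoxia targets 6 genes rose and 1 fell. The promoter of DDIT4 is shown because this gene, an inhibitor of mTORC1 that low oxygen and low energy switch on, belongs to both the hypoxia and the stress list and rose. Capitals mark ACGTG, the core of the hypoxia response element, and the same source and rules apply.
DDIT4, chr10:72273674-72273919, plus strand: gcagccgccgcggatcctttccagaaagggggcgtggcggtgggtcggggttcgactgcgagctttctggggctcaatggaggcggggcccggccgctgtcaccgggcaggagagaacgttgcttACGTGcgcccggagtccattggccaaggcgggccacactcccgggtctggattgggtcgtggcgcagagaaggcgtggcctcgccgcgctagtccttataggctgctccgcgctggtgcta
The motif begins 125 bases before the start. It was found on either strand within 250 bases before the start in 16 of 25 hypoxia genes with a promoter in the table (64%), against 21.7% of all genes. Of the 5 called members with a promoter there, 3 held it. In the same search the E-box CACGTG was in 9 of 44 ribosome biogenesis genes (20.5%, against 7.73% of all) and in 1 of 4 called ones. The CLEAR motif CACGTGAC was in 8 of 36 lysosome and autophagy genes (22.2%, against 2.66%) and in 1 of 4 called ones.

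DDIT4 was at 105, 139 and 93.5 CPM at 24 h and at 480, 618 and 581 CPM at 72 h (+2.31 ± 0.36, adjusted p = 8.5e-04). NDRG1, a stress-induced gene and common hypoxia marker, went from 119, 110 and 85.4 CPM to 649, 634 and 604 CPM (+2.59 ± 0.31, adjusted p = 7.4e-05). PFKFB4, an enzyme that sets the rate of glycolysis (chromosome 3, 48517684–48562015), went from 1.91, 4.93 and 1.87 CPM to 11.5, 14.7 and 15.9 CPM (+2.24 ± 0.44, adjusted p = 0.0069). VEGFA, the angiogenic factor, went from 9.53, 7.4 and 7.48 CPM to 20.8, 25.5 and 24.5 CPM (+1.53 ± 0.31, adjusted p = 0.0083). P4HA1, a collagen prolyl hydroxylase, went from 17.8, 15.4 and 18.1 CPM to 38.4, 49.3 and 34.5 CPM (+1.25 ± 0.32, adjusted p = 0.037). CCNG2, given below, is also counted among the risers of this list. The gene that fell was ADM, the adrenomedullin precursor and a standard HIF-1 target (chromosome 11, 10304680–10307397), which went from 55.3, 69.1 and 58.6 CPM to 23.1, 14.7 and 21.9 CPM (−1.62 ± 0.29, adjusted p = 0.0035). Of 20 hypoxia targets 6 rose and 1 fell (1.85% and 0.821% of all genes) and 13 did not pass, with 19 of 20 changes above 0 and a median of +0.68. The counts were 8 and 1 of 21 without T4 6 h replicate 3, and 3 and 1 without vehicle 72 h replicate 2. Among 20 glycolysis genes ALDOC, aldolase C, was the riser, with 5 reads at 24 h and 77 at 72 h (+3.89 ± 0.54, adjusted p = 3.1e-04). The other 19 did not pass, the list's median was +0.22, and 1 rose and 1 fell without T4 6 h replicate 3. None of 47 nuclear-encoded genes of oxidative phosphorylation passed (0 by edgeR, DESeq2 and limma, 2 at an unadjusted p under 0.05, median −0.02). Among 12 mitochondrially encoded genes MT-ND6 fell (−1.29 ± 0.25, adjusted p = 0.0076), and 100% of its reads came from entries whose values are not whole, that is, reads divided among like sequences. Its pseudogene MTND6P4 fell too (−1.80).

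**Figure D3:**
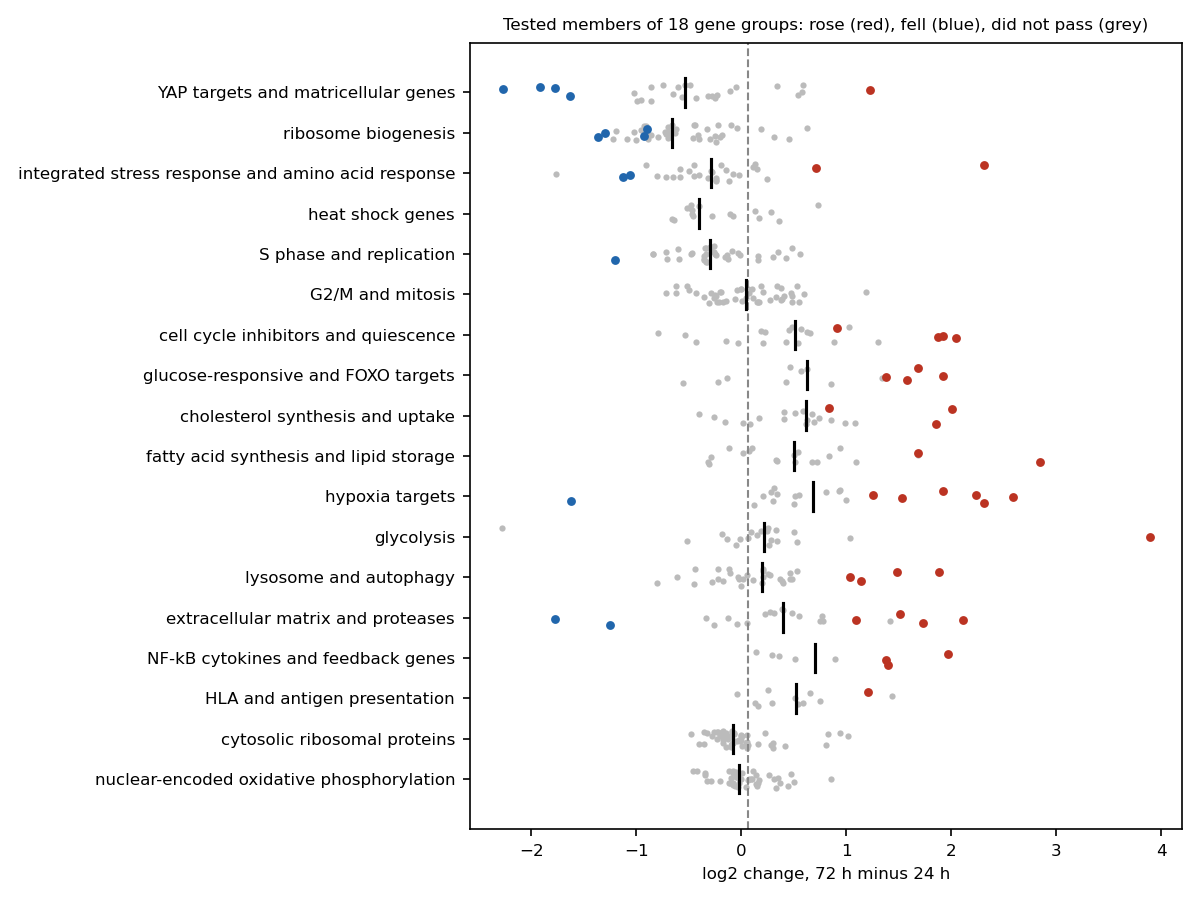
Log2 change from 24 to 72 h of the tested members of 18 gene groups. Each point is a gene (red rose, blue fell, grey did not pass), the short black line is the median of the group and the dashed line the median of all genes tested (+0.06). Ribosome biogenesis genes lie mostly to the left, with a median of −0.66, and hypoxia targets mostly to the right, with a median of +0.68.

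Several genes of lipid supply rose. SCD, stearoyl-CoA desaturase, which makes monounsaturated fatty acids (chromosome 10, 100347124–100364834), was at 61.6, 74 and 41.8 CPM at 24 h and at 442, 452 and 383 CPM at 72 h (+2.85 ± 0.39, adjusted p = 3.1e-04). INSIG1, the ER protein that retains SREBP and is itself an SREBP target (chromosome 7, 155297776–155310235), went from 34.3, 29 and 39.3 CPM to 123, 168 and 121 CPM (+2.01 ± 0.20, adjusted p = 1.2e-05). FADS2, a fatty acid desaturase, rose (+1.68 ± 0.37, adjusted p = 0.017), and so did LPCAT3, which builds polyunsaturated phospholipids (+1.64 ± 0.36, adjusted p = 0.015). LPCAT3 was 1 of 2 genes of cholesterol efflux and LXR targets that could be tested. The synthesis enzyme HMGCS1 did not pass (+0.67 ± 0.28, adjusted p = 0.25), and SREBF1, the gene of SREBP-1, lay just outside the threshold (+1.68 ± 0.45, adjusted p = 0.051). Of 21 genes of cholesterol synthesis and uptake 3 rose and 0 fell (1.85% and 0.821% of all genes) and 18 did not pass. Their changes were above 0 in 18 of 21, with a median of +0.62. Of 20 genes of fatty acid synthesis and lipid storage 2 rose, 0 fell and 18 did not pass, with a median of +0.50. Without T4 6 h replicate 3, 5 genes of each list rose, and without vehicle 72 h replicate 2, 1 of each.

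A set of 4 brakes of the cell cycle rose, and 1 activator of S phase fell. CDKN1C, the inhibitor p57 (chromosome 11, 2883213–2885773), went from 8.26, 9.87 and 9.98 CPM to 43, 31.7 and 43.1 CPM (+2.05 ± 0.37, adjusted p = 0.0035). MXD4, which competes with MYC for its partner MAX (chromosome 4, 2247432–2262294), went from 10.8, 6.78 and 8.11 CPM to 41.5, 27.8 and 25.8 CPM (+1.87 ± 0.29, adjusted p = 8.5e-04). CDKN1B, the inhibitor p27, went from 36.8, 25.9 and 28.7 CPM to 58.4, 60.1 and 53 CPM (+0.91 ± 0.21, adjusted p = 0.025). CCNG2, an atypical cyclin found in arrested cells, rose by +1.92 ± 0.46 (adjusted p = 0.027). It had 14 reads at 24 h and 51 at 72 h and passed in 9 of 17 alternatives. The same gene is counted in the hypoxia list and in that of glucose-responsive and FOXO genes, so these counts are not separate. Of 22 inhibitors and quiescence genes 4 rose and 0 fell (1.85% and 0.821% of all genes) and 18 did not pass, with a median of +0.51. The counts were 2 and 0 without vehicle 72 h replicate 2, 5 and 1 of 24 without T4 6 h replicate 3, and 4 and 2 with the 9 DMSO libraries alone. CDC25A, the phosphatase that opens the way into S phase (chromosome 3, 48157146–48188402), went from 203, 203 and 144 CPM to 76.9, 73.7 and 88.8 CPM (−1.20 ± 0.23, adjusted p = 0.0051). It was the faller among 36 genes of S phase and replication, where 35 did not pass and 29 of 36 changes were below 0 (median −0.30). Without T4 6 h replicate 3, 4 of 37 fell. Among 47 genes of G2 and mitosis 0 passed by edgeR or limma, 1 by DESeq2 and 3 at an unadjusted p under 0.05, with 26 changes above 0 and 21 below (median +0.04), and 1 of 51 fell without T4 6 h replicate 3. CDC20, an activator of the anaphase-promoting complex, was at 301, 336 and 310 and then at 194, 193 and 229 CPM (−0.62 ± 0.17, adjusted p = 0.069), and the spindle protein ASPM had +1.19 ± 0.37 (adjusted p = 0.11).

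Some genes of a mixed list of glucose-responsive genes and genes linked to FOXO factors, which act when growth signals fade, rose. So did some genes of lysosomes. TRIB2, a pseudokinase (chromosome 2, 12716889–12742734), went from 22.2, 34.5 and 36.2 CPM to 104, 95.2 and 79.5 CPM (+1.58 ± 0.22, adjusted p = 3.1e-04). FBXO32, also called atrogin-1, a ubiquitin ligase subunit, rose by +1.68 ± 0.40 (adjusted p = 0.028), and BBC3, the death protein PUMA, by +1.38 ± 0.33 (adjusted p = 0.026). With CCNG2 these were 4 risers of 13 glucose-responsive and FOXO genes (1.85% of all genes rose), with 0 fallers (0.821% of all) and a median of +0.63. The counts were 1 and 0 without vehicle 72 h replicate 2, and 4 risers and 1 faller both without T4 6 h replicate 3 and with the 9 DMSO libraries alone. TXNIP, the best known glucose-responsive gene of the list, was at 60.4, 35.1 and 46.1 and then at 79.9, 77.1 and 53 CPM and did not pass (+0.57 ± 0.53, adjusted p = 0.60). CTSD, the lysosomal protease cathepsin D (chromosome 11, 1752752–1764573), went from 800, 962 and 869 CPM to 1719, 1862 and 1833 CPM (+1.04 ± 0.22, adjusted p = 0.012). CTSF, cathepsin F (+1.88 ± 0.42, adjusted p = 0.017), ULK1, the kinase that starts autophagy (+1.48 ± 0.38, adjusted p = 0.044), and GABARAPL1, a protein of the autophagosome membrane (+1.14 ± 0.28, adjusted p = 0.031), rose as well. These were 4 of 33 lysosome and autophagy genes, 29 of which did not pass (median +0.20). Without vehicle 72 h replicate 2 the count was 0, and with the 9 DMSO libraries alone 4 rose and 1 fell. ULK1 and GABARAPL1 missed the threshold without any 1 of the 6 libraries. Of 17 p53 targets, the stress cytokine GDF15 went from 18.4, 17.3 and 15 CPM to 44.6, 61.2 and 51.7 CPM (+1.64 ± 0.24, adjusted p = 4.2e-04). BBC3 rose too, while AEN, a nuclease (chromosome 15, 88621296–88632282), fell from 400, 461 and 413 CPM to 174, 154 and 176 CPM (−1.34 ± 0.21, adjusted p = 0.001).

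Some feedback genes of growth factor and inflammatory signalling rose. DUSP6, the phosphatase of ERK (chromosome 12, 89347232–89353271), went from 17.8, 18.5 and 16.2 CPM to 54.6, 66.3 and 56.3 CPM (+1.75 ± 0.22, adjusted p = 1.1e-04). SPRY4, an inhibitor of receptor tyrosine kinase signalling, rose by +1.39 ± 0.29 (adjusted p = 0.011) and DUSP4, a phosphatase of MAP kinases, by +1.09 ± 0.26 (adjusted p = 0.03). These 3 were the called ones of 19 immediate early genes (median +0.43), and 1 rose without vehicle 72 h replicate 2. CSF3, the cytokine G-CSF (chromosome 17, 40015361–40017813), went from 23.5, 25.9 and 36.8 CPM to 110, 107 and 121 CPM (+1.97 ± 0.26, adjusted p = 2.3e-04). NFKBIA, the inhibitor that NF-κB induces against itself (chromosome 14, 35401511–35404749), went from 146, 135 and 115 CPM to 351, 349 and 346 CPM (+1.40 ± 0.27, adjusted p = 0.0065). TNFAIP2 rose by +1.38 ± 0.30 (adjusted p = 0.017). Of the 8 NF-κB genes tested, 3 rose and 0 fell (1.85% and 0.821% of all genes) and 5 did not pass, and all 8 changes were above 0 (median +0.70). MAP3K14, the kinase NIK of the alternative NF-κB pathway, fell (12.1, 22.2 and 23.7 CPM, then 8.45, 9.64 and 3.31 CPM, −1.42 ± 0.35, adjusted p = 0.03). Of 14 interferon-stimulated genes DTX3L, a ubiquitin ligase, rose (+0.85 ± 0.19, adjusted p = 0.017) and 13 did not pass (median +0.72). CD74, the invariant chain of HLA class II, went from 11.4, 14.8 and 10.6 CPM to 30.7, 28.3 and 26.5 CPM (+1.21 ± 0.24, adjusted p = 0.0076). The other 11 of 12 HLA and antigen presentation genes did not pass (median +0.53). HLA-DRA had +1.44 ± 0.40 (adjusted p = 0.062). CD68, the immune marker that could be tested, was at 13.6 to 28 CPM with no call (+0.08 ± 0.35, adjusted p = 0.93). COL1A1, the fibroblast marker that could be tested, was at 14 to 24.4 CPM with no call either (+0.31 ± 0.25, adjusted p = 0.55).

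Some lists gave no call. These were polyadenylated histone genes (9 tested), cleavage and polyadenylation factors (21), hnRNP genes (25), SR protein genes (18), speckle and paraspeckle RNAs (8) and EGFR ligands and receptor (6), with medians of −0.21 to +0.46. The count was 0 by edgeR, DESeq2 and limma in each, and 0 to 3 genes of a list had an unadjusted p under 0.05. Without T4 6 h replicate 3, 2 hnRNP genes (HNRNPAB at adjusted p = 0.025 among them) and 1 member of the speckle and paraspeckle list fell by edgeR. That member was SNHG16 (adjusted p = 0.024), a small nucleolar RNA host gene and not itself a speckle RNA. The other 4 lists again gave 0. In the list of metallothionein and oxidative stress genes FTL, the ferritin light chain, fell from 766, 839 and 821 CPM to 403, 495 and 514 CPM (−0.78 ± 0.20, adjusted p = 0.036). The other 21 of 22 did not pass, while 11 of 22 had an unadjusted p under 0.05 (1209 of all 8035 genes) and DESeq2 called 1 riser and 4 fallers. Without T4 6 h replicate 3 edgeR called 1 riser and 5 fallers, and without vehicle 72 h replicate 2 it called 0. HNRNPC, the RNA-binding protein the study is about, was at 381, 307 and 393 CPM at 24 h and at 392, 458 and 388 CPM at 72 h (+0.19 ± 0.24, adjusted p = 0.71). Its libraries overlapped. Among other falls named by the rule, WDR77, a partner of the arginine methyltransferase PRMT5 (108, 125 and 125 CPM, then 52.3, 43.1 and 49 CPM, −1.31 ± 0.24, adjusted p = 0.0037), and RPRML (−1.33 ± 0.35, adjusted p = 0.044) complete the list.

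The same interval in T4-treated cells comes from 6 other libraries and shares none with the vehicle comparison. Both comparisons use the estimate of the spread shared by all 18 libraries, so their calls are not fully separate tests. With T4, 413 genes (5.14%) were called, of which 240 (2.99%) rose and 173 (2.15%) fell. Of the 149 vehicle risers, 133 (89.3%) had a change above 0 with T4, against 51.7% of all genes, and 45 were called risers there, which is 30.2% of the vehicle risers and 18.8% of the T4 risers. Of the 66 vehicle fallers 54 (81.8%, against 48.3% of all genes) were below 0 and 19 were called fallers, 28.8% of the vehicle fallers and 11% of those with T4. The median change of the vehicle risers was +1.54 with vehicle and +0.81 with T4, and that of the fallers −1.06 and −0.43. The vehicle values were the ones used to choose these genes, so their larger size is not a result. ADAM8 (+2.35), SCD (+1.97), SLCO4A1-AS1 (+2.08) and COL6A1 (+0.99) were called risers with T4 too. ANKRD1 (−1.08), F3 (−0.99), SLC7A5 (−1.58) and ADM (−1.32) were called fallers.

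The difference between the vehicle and T4 changes, tested as an interaction, was called in 7 genes (0.0871%), with the vehicle change higher in 4 (0.0498%) and lower in 3 (0.0373%). ITGB4 rose with vehicle, but with T4 it was at 175 ± 12.2 CPM (SD, n = 3) at 24 h and 236 ± 42.1 CPM at 72 h (+0.44 ± 0.21). The difference was +1.80 ± 0.29 (adjusted p = 0.016). S100A3 was already at 25.6 ± 2.54 CPM at 24 h with T4 and at 24.3 ± 9.92 CPM at 72 h (difference +2.86 ± 0.49, adjusted p = 0.018). DAB2, an endocytic adaptor, rose with vehicle from 57.2, 52.4 and 38.7 CPM to 83, 89 and 89.4 CPM and fell with T4 from 178 ± 16.7 to 97.5 ± 13 CPM (difference +1.69 ± 0.26, adjusted p = 0.016). SPHK1, sphingosine kinase 1, fell with vehicle from 95.9, 96.8 and 82.9 CPM to 46.1, 46.5 and 48.4 CPM and rose with T4 from 37.9 ± 14 to 73.1 ± 1.15 CPM (difference −1.91 ± 0.34, adjusted p = 0.03). DAB2 and SPHK1 were the 2 vehicle calls that were called the opposite way with T4. The split of these calls depends on the settings: the vehicle change was higher in 93 and lower in 206 without T4 6 h replicate 3, and higher in 51 and lower in 121 by DESeq2.

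**Figure D4:**
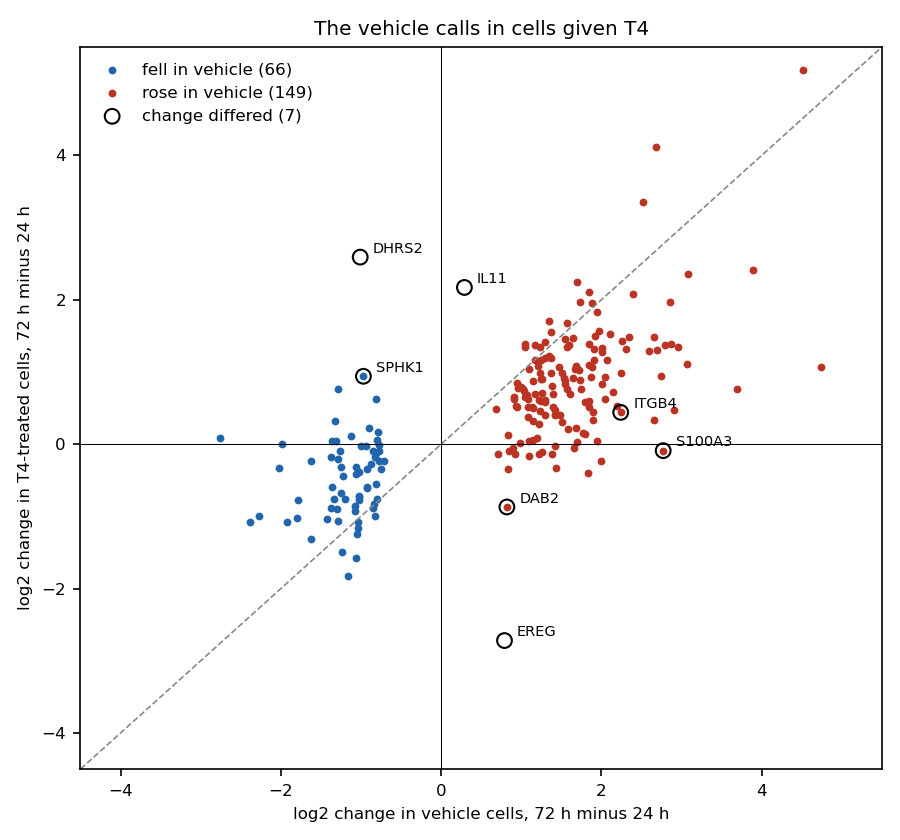
Change from 24 to 72 h with vehicle (x axis) and with T4 (y axis), both log2, for the 215 genes called with vehicle. Red points rose and blue points fell with vehicle, and circles mark the 7 genes whose change differed between the treatments, 3 of which (EREG, DHRS2 and IL11) were not called with vehicle. Most points lie in the 2 quadrants of equal sign, 133 of 149 risers and 54 of 66 fallers, and the dashed line marks equal changes.

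Poly(A) site use could be compared in 636 genes, as the share of reads at the distal of a gene's 2 most used sites. Only 9.79% of the genomic positions in the table fall between the GRCh38 ends of the transcript entry above them, and 494 of the 636 pairs include a position. In the 392 of these with a transcript end and a position, which site is distal rests on the listing, with the transcript end taken as distal. No gene passed by edgeR (0 of 636, smallest adjusted p = 0.47). The unadjusted p was under 0.05 in 47 genes, of which 30 shifted to the distal site and 17 to the proximal one. Limma (36 and 45 unadjusted with pseudocounts 1 and 5) and the other 12 alternatives run also gave 0. The median share over genes was 54.4, 52.9 and 54% in the 24 h libraries and 54.5, 57.7 and 53.2% at 72 h. The means were 53.8 ± 0.733% and 55.1 ± 2.29% (SD, n = 3), a difference of 1.4 percentage points (exact permutation test, two-sided, p = 0.4, where the smallest p possible is 0.1). Vehicle 72 h replicate 2 had the highest share, and the difference was 0.128 points without it and 2.36 points without replicate 3 at 72 h. On simulated data the test found 84% of genes changed by a log2 of 2 and 22% of those changed by 1, with 7.02% false calls. That simulation used a dispersion of 0.05, set by hand for every gene and not estimated from these sites. It therefore does not measure what share of such shifts would be called in these libraries. The 0 calls do not show that no site moved.

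Of the 12 genes with the smallest p, 6 in each direction, 6 are given as values, none of them past the threshold. GOSR2, a SNARE of Golgi transport, had 60, 52.4 and 43.5% of its reads at the distal site at 24 h and 87.5, 72.7 and 71% at 72 h, from 22 to 46 reads a library (+1.61 ± 0.50, adjusted p = 0.47). SRSF4, an SR splicing protein, had 17.4, 8.47 and 10.3% and then 19.8, 43.5 and 26.9%, from 78 to 118 reads (+1.65 ± 0.53, adjusted p = 0.47). ZNF346, a zinc finger protein, had 43.7, 48.1 and 41.1% and then 79.1, 65.5 and 64.4% (+1.55 ± 0.48, adjusted p = 0.47). UBR4, a ubiquitin ligase, had 95.7, 98 and 95.9% and then 91.6, 88.5 and 91% (−1.62 ± 0.42, adjusted p = 0.47). INF2, a formin that nucleates actin, had 52.2, 48.3 and 65.4% and then 17.6, 25 and 30.4%, from 23 to 84 reads (−1.89 ± 0.54, adjusted p = 0.47). RECQL, a DNA helicase, had 74.4, 82.1 and 73.3% and then 52.6, 45.3 and 50%, from 28 to 53 reads (−1.71 ± 0.50, adjusted p = 0.47). In these 6 genes the libraries of the 2 times did not overlap, but they were picked by their p in these same libraries. The lowest counts leave wide sampling error. Of the 12 genes with the smallest p in either direction, VPS53 was the one whose libraries overlapped. PDLIM5, a PDZ and LIM domain protein, had 2.92, 3.08 and 4.26% and then 0.778, 4.68 and 1.94% (−0.77 ± 0.63, adjusted p = 0.86). As 97.1% of its reads are in entries whose values are not whole, its sites are not well separated.

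**Figure D5:**
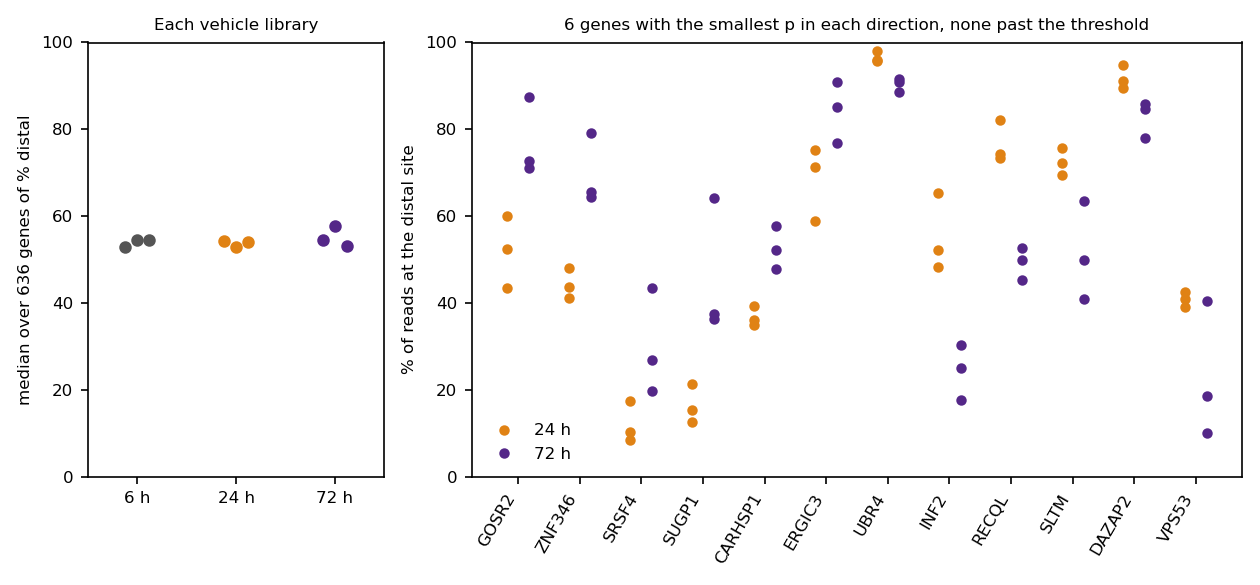
Percent of reads at the distal poly(A) site. Left, the median over 636 genes in each vehicle library at 6, 24 and 72 h. Right, each 24 h library (orange) and 72 h library (purple) for the 6 genes with the smallest p in each direction, none of which passed. The medians lie between 52.9 and 57.7%.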

How the data were processed

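The time-course table of 18 libraries was used, and the other tables of the series were not used here. The authors deposited it as estimated counts, given for each transcript end or for a position on the genome. The table's name points to normalised counts, but nearly all entries are whole and library totals differ, so the values were treated as counts. If they had been scaled, the edgeR and DESeq2 p-values would be affected. The submitters' processing notes name Salmon 0.14.1 as tool and hg38 as build. Of 94924 entries, 66115 of 71604 transcript ends matched GENCODE 29 (GRCh38), which gives all gene coordinates, and each of 23320 positions was given to the transcript entry above it (99.8% share its chromosome and strand, and 9.79% lie within its span). In all 89065 entries of 42145 genes were used, and those left out held 1.67 to 4.23% of the reads. Counts (98.3 to 98.5% of entries whole) were rounded and summed per gene. No 2 vehicle libraries of the same time agreed within sampling noise.

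Expression was tested with edgeR 4.0.16 (R 4.3.3; TMM scaling, expression filter, quasi-likelihood test, all 18 libraries in 6 groups), with Benjamini-Hochberg adjustment over 8035 genes and a call at 0.05. Levels are TMM-scaled CPM and changes log2 ± standard error. The biological coefficient of variation was 24.8%. Site use compared distal with proximal reads (log2 ratio) at a gene's 2 most used sites with a mean of 10 or more counts, as an interaction of site and time. Of the genes with 2 such sites, 170 of unknown order were left out. The order of a transcript end and a position rests on the listing. In 98.4% of 2292 neighbouring gene pairs the offsets between the 2 kinds of entry put the transcript end downstream. On simulated data with 193 of 7796 genes changed, the expression test found 35.4% of those changed by a log2 of 1 and 88.7% of those changed by 2, with 4% false calls. DESeq2 1.42.0 and limma 3.58.1 (pseudocounts 1 and 5) were alternatives, beside other scaling, filters, sets of libraries and leaving out each replicate.

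The rule named the 15 largest rises and falls among called coding or long non-coding genes with a mean of at least 10 CPM and no overlap of libraries, the 4 called members with the smallest p of each of 37 lists (or the 2 with the smallest p), and the first genes of the other tests. VEGFA, P4HA1, WWTR1, LAMA5, S100A6, MTND6P4 and the genes given beside them for their pathway (PTGS2, CYR61, HMGCS1, SREBF1, TXNIP and HLA-DRA) were added after their values were seen. The comparison and the lists were chosen with earlier results of these data known. Results of some genes the rule names are not reported here.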

Additional observations from a re-analysis of the deposited data

Results flagged for a closer look

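The change from 24 to 72 h differed between vehicle and T4 in 7 genes, by the edgeR interaction test over 8035 genes (1361 at an unadjusted p under 0.05). The vehicle change was above that with T4 in EREG, the growth factor epiregulin (difference 3.52 ± 0.51, adjusted p = 0.012), DAB2 (1.69 ± 0.26, adjusted p = 0.016), ITGB4 (1.80 ± 0.29, adjusted p = 0.016) and S100A3 (2.86 ± 0.49, adjusted p = 0.018). It was below that with T4 in DHRS2, a short-chain dehydrogenase (−3.60 ± 0.58, adjusted p = 0.016), IL11, a cytokine (−1.88 ± 0.32, adjusted p = 0.018), and SPHK1 (−1.91 ± 0.34, adjusted p = 0.03).

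EREG, DHRS2 and IL11 did not pass with vehicle. EREG was at 3.81, 1.85 and 2.49 CPM at 24 h and at 3.07, 6.24 and 4.64 CPM at 72 h with vehicle, and fell from 50.6 ± 2.66 to 7.5 ± 1.81 CPM (SD, n = 3) with T4. IL11 was at 222, 228 and 198 CPM and then 288, 256 and 248 CPM with vehicle, and rose from 47 ± 4.31 to 211 ± 19.5 CPM with T4. DHRS2 was at 10.2, 8.63 and 9.35 CPM and then 5.38, 3.4 and 5.3 CPM with vehicle, and rose from 2.68 ± 0.798 to 16.7 ± 3.38 CPM with T4. The cause of the differences was not tested.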

How the results depend on the processing

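The vehicle count of 215 calls was 216 with median-of-ratios size factors, 119 with library totals, 397 with DESeq2 (208 higher and 189 lower), 127 and 168 with limma (pseudocounts 1 and 5), 221 with no filter and 185 with a mean of at least 30 counts. It was 245 with the 6 libraries alone, 556 with the 9 DMSO libraries alone (233 and 323), 91 with transcript ends of the same version only and 98 to 126 without each replicate in turn, lowest without vehicle 72 h replicate 2. Leaving out T4 6 h replicate 3 gave 547 and the 12 libraries at 24 and 72 h gave 344 (189 and 155), both chosen after seeing the data. The T4 count of 413 was 848 with DESeq2, 819 with no filter, 1363 without T4 6 h replicate 3 and 974 with the 12 libraries. With totals it was 569 (510 and 59), where the median of all genes was +0.36, so the T4 split of higher and lower calls depends on scaling. The count of 7 differences between treatments (4 with the vehicle change higher and 3 lower) was 13 with median-of-ratios (4 and 9), 5 with totals (1 and 4), 172 with DESeq2 (51 and 121), 667 with no filter (577 and 90), 299 without T4 6 h replicate 3 (93 and 206) and 69 with the 12 libraries (33 and 36), so its split depends on these settings. The cause of these changes was not tested. With a replicate block the counts were 171, 308 and 6, and 0 for site use. Replicate numbers did not pair the vehicle libraries (correlations of 0.07, −0.36 and −0.13 between same-numbered ones), so the block was not used. Of the 76 named genes that passed, 36 passed in every alternative that tested them and all 76 kept their direction. Site use gave 0 calls in each of 14 alternatives. On simulated data most changes of a log2 of 1 were missed, for site use with a spread set by hand. Whether depth or the spread among 3 libraries sets this was not tested.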

Other observations

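Genes that rose and belong to none of the lists included regulators of cell identity and growth, picked here after their values were seen. SOX4, a transcription factor of progenitor cells, was at 3.81, 8.02 and 3.74 CPM at 24 h and at 18.4, 22.1 and 24.5 CPM at 72 h (+2.05 ± 0.34, adjusted p = 0.0017). ETV1, an ETS factor, went from 26, 17.9 and 16.2 CPM to 73.8, 79.9 and 70.2 CPM (+1.89 ± 0.23, adjusted p = 6.8e-05). BCL3, a nuclear partner of NF-κB, went from 12.1, 8.02 and 17.5 CPM to 56.1, 55.6 and 62.3 CPM (+2.20 ± 0.33, adjusted p = 5.9e-04), and HBP1, a repressor of the cell cycle, rose by +2.15 ± 0.37 (adjusted p = 0.0026). SAT1, the enzyme that marks polyamines for breakdown or export, went from 26, 29.6 and 32.4 CPM to 119, 118 and 92.1 CPM (+1.90 ± 0.29, adjusted p = 7.8e-04). DDR1, a collagen receptor kinase, went from 15.9, 14.8 and 13.7 CPM to 48.4, 53.3 and 53 CPM (+1.80 ± 0.26, adjusted p = 3.9e-04). NNMT, nicotinamide N-methyltransferase, went from 17.8, 16.6 and 16.8 CPM to 51.5, 38 and 49 CPM (+1.42 ± 0.24, adjusted p = 0.0016). In each of these 7 genes the libraries of the 2 times did not overlap, which is no separate support, as the genes were picked on these values.

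A few other genes are given for their values, again picked after these were seen. TRAC, the constant segment of the T cell receptor α chain, had 18 reads at 24 h and 225 at 72 h. Its levels were 2.54, 6.17 and 2.49 CPM and then 54.6, 46.5 and 47.7 CPM (+3.69 ± 0.45, adjusted p = 8.7e-05). CD3E and PTPRC, defining markers of T cells and of blood cells, were at 0 reads in all 6 libraries. YIPF4, a Golgi membrane protein, took 1.85, 2.04 and 2.19% of the reads at 24 h and 0.673, 0.886 and 0.939% at 72 h, and it fell by −1.24 ± 0.30 (adjusted p = 0.03). TUBD1, delta-tubulin, took 1.13, 1.41 and 0.871% and then 2.26, 0.887 and 1.69%, with overlap of the libraries and no call (+0.59 ± 0.48, adjusted p = 0.56). SEMA3E took 0.393, 0.484 and 0.303% and then 0.747, 0.304 and 0.6%. SEMA3E and PDLIM5 ranked the 6 libraries in the same order as TUBD1, and 97.1% of PDLIM5 reads are in entries that are not whole. Whether reads are divided among these genes was not tested, so the TUBD1 values may not be those of TUBD1 alone.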
